A study of Mus musculus with 3 samples.

Results

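The genes described here are 37 genes of DNA replication, from the proteins that mark replication origins to the enzymes that supply nucleotides and the factors that rebuild chromatin. They were taken by symbol from a list of replication genes, and all 37 were found among the 34590 gene symbols of the table. Their messenger RNA was measured in 3 libraries of primary mouse bone marrow-derived dendritic cells, antigen-presenting cells grown from marrow in 500 U/ml of GM-CSF, a growth factor for granulocytes and macrophages. Non-adherent cells were taken on day 6 and kept for 48 h more, as 1 control library labelled with a dose of 0 ng/ml, 1 library with buffer, and 1 library given rATB at 800 ng/ml, the recombinant B chain of articulatin, a mistletoe protein. All 3 cultures thus shared the cell type and the growth factor. For the buffer culture the dose is labelled 1 ng/ml, and what that stands for is unclear. No source used here gives the strain, age or number of mice, or whether marrow was pooled.

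DNA replication begins with licensing, when the origin recognition complex, Cdc6 and Cdt1 load the MCM helicase onto DNA. Kinases, Cdc45, the GINS complex and Mcm10 then turn the helicase on, primase and the polymerases copy both strands, and the sliding clamp Pcna, placed by replication factor C, holds the polymerases on DNA. Many of these genes are transcribed as cells enter S phase, under the E2F transcription factors. In GM-CSF marrow cultures, precursors divide, while mature dendritic cells have largely left the cell cycle.

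The control library held 17776492 reads in genes, the buffer library 16105080 and the rATB library 15203139. Levels are given in units, where 1 unit is 1 scaled read in 1000000 of the control library and stood for 15.7 to 17.8 reads. No value is corrected for gene length, so levels are compared between libraries and not between genes. Each ratio of 2 libraries is followed by its exact conditional 95% interval, which covers counting error only. Each group was a single library, so no difference has a replicate check, the treatment could not be tested, and no p-value is given. In whole cultures, fewer dividing cells and less RNA per cell cannot be told apart.

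The 37 genes were in the main highest in the buffer library and were close to each other in the control and rATB libraries. Their summed level was 643 units in the control, 706 with buffer and 624 with rATB. The rATB sum was 0.883 times the buffer sum (interval 0.860 to 0.907) and 0.970 times the control sum (interval 0.944 to 0.996). Buffer held the highest of the 3 levels for 26 of the 37 genes, against 22.7% of the 12559 genes that passed the filter, which asked for a mean level of 1 unit or more. Summed over those 12559 genes, rATB was 1.02 times buffer and 0.966 times the control, so the members' 0.970 lay near the ratio of all genes. The rATB library held the lowest level for 20 genes and the highest for 7, and over all genes it was lowest for 44.1% and highest for 33.2%. The control was highest for 4 genes and lowest for 13, beside 44% and 20.1% of all genes, and buffer was lowest for 4, beside 35.8%. Scaled by library total, buffer was highest for 29 genes, beside 37.6% of all genes, and the control was highest for 1 and lowest for 19, beside 27.1% and 33.1%. Scaled by median-of-ratios, buffer was highest for 27, beside 29.6%, and the control highest for 2 and lowest for 19, beside 31.5% and 29.9%. The rATB library was lowest for 16 genes by library total, beside 43.7% of all genes. By median-of-ratios it was lowest for 15, beside 39.6%. All 37 genes passed the filter.

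On the scale of log2(level + 1), the median difference of the 37 genes was -0.18 for rATB minus buffer, while over all genes past the filter it was -0.0024. For rATB minus control the median was -0.037, beside -0.056 over all genes. Buffer minus control gave 0.11 beside -0.052. The replication genes thus lay below the middle of all genes in the comparison of rATB with buffer, and beside it in the comparison with the control. Both comparisons share the rATB library, and the first shares its buffer library with the third.

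No member differed by 1 or more on that scale in any pair of libraries. At low levels the added 1 shrinks the difference, and the plain ratios of Orc1 and Fen1 between buffer and control, given with their read counts under those genes, exceed 2-fold. By that rule 0.669% of all genes were lower and 0.9% higher in rATB than in buffer, and 0.884% lower and 0.948% higher than in the control. Against both libraries at once 0.557% of all genes were lower and 0.621% higher, and between buffer and control 0.0557% were lower and 0% higher in buffer. At a difference of at least 0.5, 5 members were lower in rATB than in buffer, against 4.7% of all genes. They were Cdc6, Pola1, Rrm2, Tk1 and Uhrf1. Tk1 was the member lower by that size than the control, against 5.62% of all genes, and so the member lower than both, against 3.01%. None was higher by that size with rATB, where 4.48% of all genes were higher than buffer and 4.14% higher than the control, and 2.85% higher than both. Buffer was above the control by that size for Cdc6 and Fen1, against 0.756% of all genes, and below it for Orc1, against 1.31%.

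By counting error alone, 14 members were lower in rATB than in buffer with an interval that did not include 1, and 2 were higher. Over all genes the shares were 20% lower and 19.6% higher. Against the control, 7 were lower and 4 higher, beside 27.3% and 14.5% of all genes. Scaled by library total that split became 5 lower and 5 higher, beside 21% and 18.9% of all genes, and scaled by median-of-ratios it was also 5 and 5, beside 20.1% and 19.5%. The interval depends on the number of reads, and the members' median level of 13.8 units was below the 25.9 units of all genes. Buffer exceeded the control for 9 members and lay below it for 1, while 5.61% of all genes were higher and 21.9% lower. Scaled by library total 18 members were higher and 1 lower, beside 15% and 9.16% of all genes, and by median-of-ratios 15 and 1, beside 10.3% and 13.3%.

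**Figure D1:**
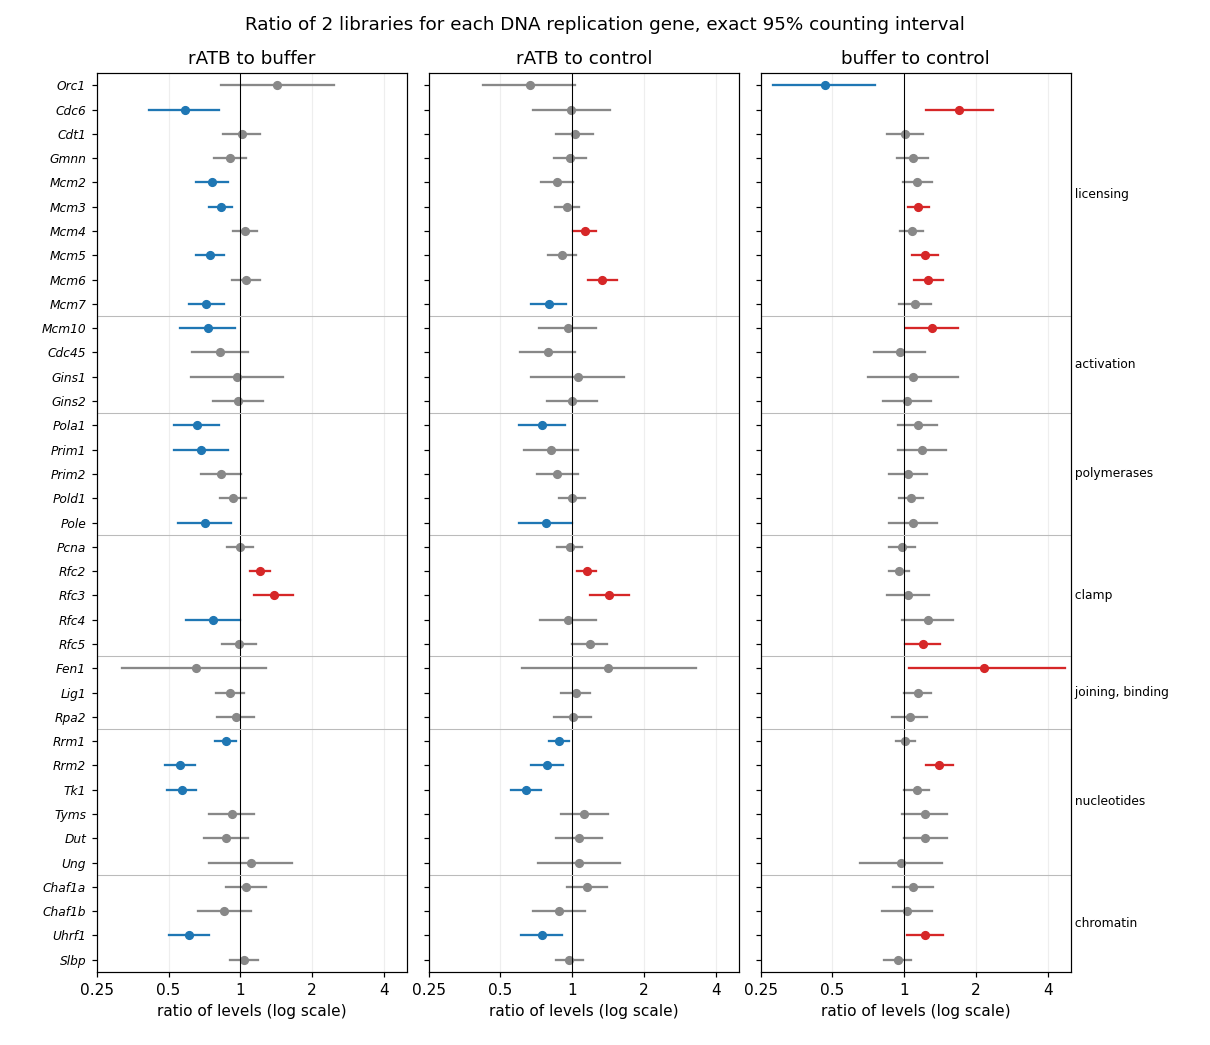
Ratio of levels between 2 libraries for each of the 37 genes on a log axis, with exact 95% counting intervals and genes ordered by role. Red marks an interval above 1 and blue an interval below 1: 14 genes were below 1 for rATB to buffer, 7 for rATB to control, and 9 were above 1 for buffer to control.

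Of the licensing factors other than the helicase, Cdc6 and Orc1 differed between buffer and control in opposite directions. Cdc6 (ENSMUSG00000017499), the ATPase that joins the origin recognition complex and helps to load the helicase, was at 3.66 units in the control, 6.21 with buffer and 3.62 with rATB. The buffer library stood above both others, by 1.70 times over the control (interval 1.23 to 2.35) and 1.71 times over rATB (interval 1.23 to 2.41). Orc1 (ENSMUSG00000028587), the largest subunit of the origin recognition complex, was at 3.26 units in the control, 1.52 with buffer and 2.16 with rATB. These values rest on 58, 26 and 34 reads, and the buffer to control ratio was 0.467 (interval 0.282 to 0.753). The reads of Orc1 may include some of Gm12743, a transcript on the opposite strand that shares exonic bases with it and was itself counted at 19, 8 and 6 reads in the same order.

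Cdt1 (ENSMUSG00000006585), which brings the helicase to the origin, was at 15.5 units in the control, 15.6 with buffer and 15.8 with rATB. Geminin, the protein of Gmnn (ENSMUSG00000006715), binds Cdt1 and blocks a further round of licensing. It was at 20.0, 21.7 and 19.6 units in the same order. Neither differed beyond counting error in any pair: the rATB to buffer ratio was 1.01 for Cdt1 (interval 0.848 to 1.21) and 0.904 for Gmnn (interval 0.774 to 1.05).

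The 6 genes of the MCM helicase, a ring of 6 subunits, differed from each other in their order of libraries. Mcm7 (ENSMUSG00000029730) was at 18.6 units in the control, 20.6 with buffer and 14.8 with rATB, lowest with rATB by more than counting error. Its ratio was 0.719 to buffer (interval 0.606 to 0.850) and 0.795 to the control (interval 0.670 to 0.943). Mcm5 (ENSMUSG00000005410) was at 26.1, 31.8 and 23.6 units in the same order. Buffer was the library apart for Mcm5, with a rATB to buffer ratio of 0.744 (interval 0.650 to 0.850) and a rATB to control ratio of 0.906 (interval 0.788 to 1.04). Mcm2 stood at 21.7, 24.5 and 18.7 units, with a rATB to buffer ratio of 0.762 (interval 0.654 to 0.886). Mcm3 stood at 37.7, 43.3 and 35.8 units, with a ratio of 0.828 (interval 0.741 to 0.926). For both of these the interval against the control included 1.

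Mcm6 (ENSMUSG00000026355) and Mcm4 (ENSMUSG00000022673) went the other way. Mcm6 was at 20.5 units in the control, 25.9 with buffer and 27.4 with rATB. Its rATB level was 1.34 times that of the control (interval 1.16 to 1.54) and did not differ from buffer beyond counting error, at a ratio of 1.06 (interval 0.925 to 1.21). Mcm4 was at 34.4, 36.9 and 38.7 units, a rATB to control ratio of 1.13 with an interval whose lower end was 1.00 when rounded. Exons of Mcm7 share bases with Cops6 and Ap4m1 on the opposite strand, which stood at 62.7, 58.5 and 63.8 units and at 26.7, 23.1 and 25.0 units.

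The promoters of Mcm6 and Mcm5 are shown because, of the members with a promoter in the reference table, they held the most E2F-type motifs. The sequences are from RefSeq on GRCm38.p6, read 5′ to 3′ on the strand of the gene, and the E2F-type matches are in capitals. The Mcm6 stretch covers chr1:128359706-128359955 on the minus strand, ending at the base before the start, and the Mcm5 stretch covers chr8:75109259-75109467 on the plus strand, 209 bases that end before the outermost start of the gene.
Mcm6: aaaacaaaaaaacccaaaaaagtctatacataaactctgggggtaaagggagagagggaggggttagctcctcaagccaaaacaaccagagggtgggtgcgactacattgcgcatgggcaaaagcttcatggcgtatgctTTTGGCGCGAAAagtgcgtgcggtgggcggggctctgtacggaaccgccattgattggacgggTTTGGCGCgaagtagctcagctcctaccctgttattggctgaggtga
Mcm5: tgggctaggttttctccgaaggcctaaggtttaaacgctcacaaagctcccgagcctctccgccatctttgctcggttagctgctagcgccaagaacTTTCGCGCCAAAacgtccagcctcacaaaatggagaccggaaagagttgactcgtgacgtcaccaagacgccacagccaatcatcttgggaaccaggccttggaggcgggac

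The forms searched were TTTCCCGC, TTTCGCGC, TTTGCCGC and TTTGGCGC on both strands, in the 250 bases before each start. In Mcm6 a forward and a reverse match overlap between 99 and 110 bases before the start, and a further match lies 40 to 47 bases before it. The pair of overlapping matches in Mcm5 lies 142 to 153 bases before the start in the RefSeq table, which is further downstream than the end of the stretch shown. Of the 37 genes, 30 had a promoter in the RefSeq table, and 8 of these held a match (26.7%): Orc1, Cdc6, Mcm5, Mcm6, Mcm7, Pola1, Rfc3 and Uhrf1. The share was 4.02% of the 8415 genes past the filter with a promoter there, and 2.16% of all 27025 genes of that promoter table. The motif CCAAT, on either strand, was found in 18 of the 30 (60%) and in 40.6% of the genes past the filter. Members with an E2F-type match had a median rATB minus buffer difference of -0.43 (range -0.66 to 0.43, 8 genes), and those without had -0.19 (range -0.81 to 0.11, 22 genes). The ranges overlap, and a match describes letters in a window, not binding.

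**Figure D2:**
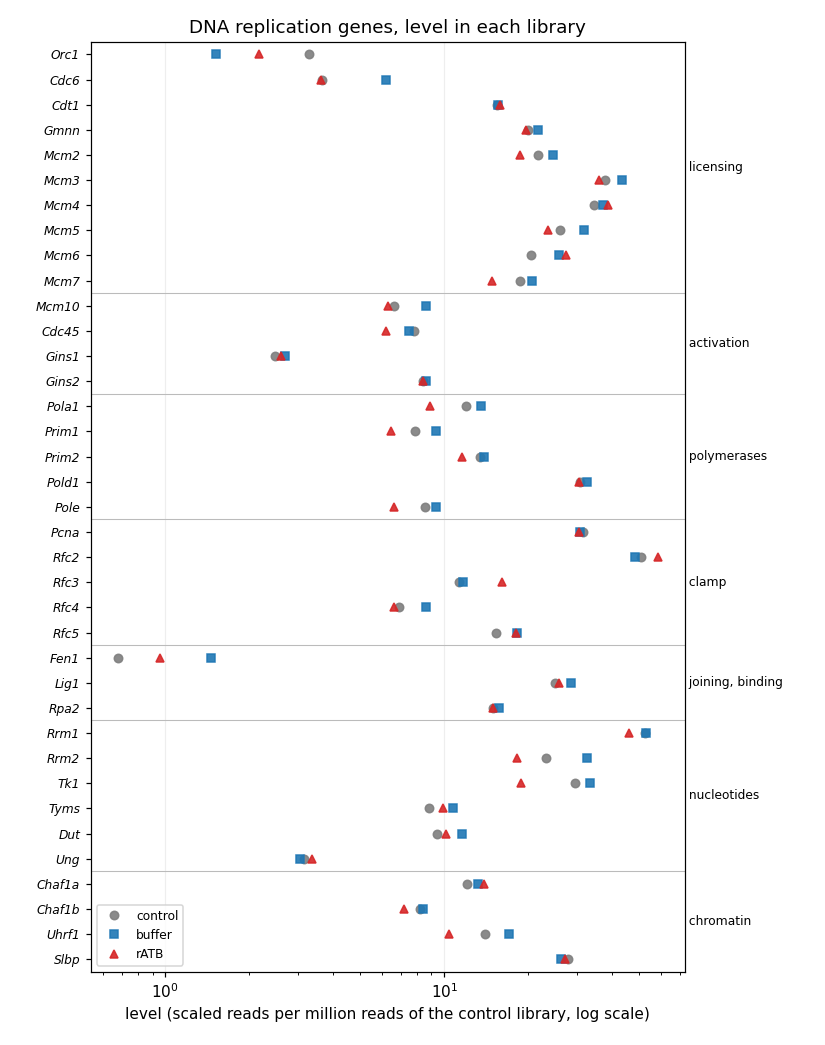
Level of each of the 37 genes in the control (grey circles), buffer (blue squares) and rATB (red triangles) libraries, in scaled reads per 1000000 reads of the control on a log axis, 1 library per group. With the deposited scaling, the buffer square is furthest to the right for 26 genes and the rATB triangle furthest to the left for 20.

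Of the genes that turn the helicase on, Mcm10 differed between libraries beyond counting error and the others did not. Mcm10 (ENSMUSG00000026669), which takes part in opening the origin, was at 6.58 units in the control, 8.61 with buffer and 6.29 with rATB. Buffer was above both others, with a rATB to buffer ratio of 0.731 (interval 0.561 to 0.95) and a buffer to control ratio of 1.31 (interval 1.02 to 1.68). Cdc45 (ENSMUSG00000000028), a part of the active helicase, was at 7.82, 7.49 and 6.16 units, lowest with rATB, with intervals that included 1 in every pair. The GINS subunit genes Gins1 and Gins2 were flat, at 2.48, 2.69 and 2.61 units and at 8.38, 8.61 and 8.39 units. Gins1 rests on 41 to 46 reads a library, and its rATB to buffer interval ran from 0.619 to 1.51.

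Polymerase and primase genes were the role group with the lowest median in rATB, at -0.44 against buffer and -0.26 against the control over 5 genes. As deposited, all 5 were lowest in rATB and highest in buffer, beside 44.1% and 22.7% of all genes, though not all by more than counting error. With the other scalings the rATB level of Pold1 lay above that of the control, so Pold1 was then not lowest in rATB. Pola1 (ENSMUSG00000006678), the catalytic subunit of the polymerase that extends the primers, was at 11.9 units in the control, 13.6 with buffer and 8.90 with rATB. Its rATB level was 0.655 times that of buffer (interval 0.527 to 0.811) and 0.746 times that of the control (interval 0.598 to 0.928), below both others. Pole (ENSMUSG00000007080), the leading-strand polymerase, was at 8.55, 9.31 and 6.61 units. The rATB to buffer ratio of Pole was 0.710 (interval 0.549 to 0.915), while the interval against the control ended at 0.999 and included 1 with the other scalings. Prim1, the catalytic primase subunit, was at 7.88, 9.37 and 6.42 units, with a rATB to buffer ratio of 0.685 (interval 0.529 to 0.884). Against the control its interval, 0.625 to 1.06, included 1. Prim2, the large primase subunit, stood at 13.4, 13.9 and 11.6 units, within counting error. Pold1, the catalytic subunit of the lagging-strand polymerase, was at 30.5, 32.6 and 30.4 units, a rATB to control ratio of 0.995 (interval 0.878 to 1.13).

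Clamp and clamp loader genes contrasted with the polymerases, and 2 of them were highest with rATB by more than counting error. Pcna (ENSMUSG00000027342), the clamp itself, was alike in the 3 libraries, at 31.3 units in the control, 30.7 with buffer and 30.5 with rATB. The rATB to buffer ratio of Pcna was 0.994 (interval 0.877 to 1.13). Rfc3 (ENSMUSG00000033970), a small subunit of the loader, was at 11.3, 11.7 and 16.1 units. Its rATB level was 1.38 times that of buffer (interval 1.14 to 1.67) and 1.43 times that of the control (interval 1.18 to 1.73), while buffer and control lay together. Rfc2 (ENSMUSG00000023104) was at 50.7, 48.3 and 58.3 units, ratios of 1.21 to buffer (interval 1.10 to 1.33) and 1.15 to the control (interval 1.05 to 1.26). Of all genes, 11.4% were higher in rATB than in both other libraries by the same rule. Lat2, which shares exonic bases with Rfc2 on the opposite strand, stood in another order of libraries, at 60.9, 55.7 and 50.8 units.

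The other small subunits of the loader did not share this. Rfc4 (ENSMUSG00000022881) was at 6.86 units in the control, 8.61 with buffer and 6.61 with rATB, a rATB to buffer ratio of 0.768 (interval 0.592 to 0.994). Rfc5 (ENSMUSG00000029363) was at 15.3, 18.3 and 18.1 units, so that buffer and rATB lay together above the control, with a buffer to control ratio of 1.19 (interval 1.01 to 1.41). Rfc4 shares exonic bases with the far more heavily read Eif4a2 on the opposite strand, which stood at 294, 330 and 357 units.

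Genes that join fragments or cover single strands lay within counting error between rATB and either other library. Lig1 (ENSMUSG00000056394), the ligase that seals lagging-strand fragments, was at 25.0 units in the control, 28.5 with buffer and 25.9 with rATB. Rpa2 (ENSMUSG00000028884), a subunit of the single-strand binding protein, stood at 14.9, 15.7 and 15.0 units. Fen1 (ENSMUSG00000024742), the flap nuclease that trims those fragments, had 12, 25 and 15 reads, or 0.675, 1.46 and 0.953 units, and was the member with the fewest reads. Its buffer to control ratio was 2.17 (interval 1.05 to 4.74). In GENCODE M21 exons of Fen1 share bases with Tmem258 and Gm10143 on the opposite strand. No source used here says how the counting treated shared bases.

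On the scale of log2(level + 1), the members furthest below buffer with rATB were Rrm2 and Tk1, both of nucleotide supply. Rrm2 (ENSMUSG00000020649), the S phase subunit of ribonucleotide reductase, was at 23.2 units in the control, 32.6 with buffer and 18.2 with rATB, a separate level in each library. Its rATB level was 0.558 times that of buffer (interval 0.482 to 0.645) and 0.782 times that of the control (interval 0.671 to 0.912), and buffer was 1.40 times the control (interval 1.23 to 1.60). Tk1 (ENSMUSG00000025574), the cytosolic thymidine kinase of the salvage pathway, was at 29.5, 33.2 and 18.8 units. As deposited, control and buffer of Tk1 lay within counting error, while under both other scalings Tk1 was higher in buffer than in the control. Its rATB level was 0.567 times that of buffer (interval 0.491 to 0.653) and 0.638 times that of the control (interval 0.552 to 0.737). Afmid, which shares exonic bases with Tk1 on the opposite strand, was counted at 79, 55 and 43 reads against 524, 567 and 296 of Tk1. Rrm1 (ENSMUSG00000030978), the large reductase subunit, was at 52.3, 52.9 and 45.9 units, lower in rATB by a smaller step. The rATB to buffer ratio of Rrm1 was 0.868 (interval 0.786 to 0.958) and the ratio to control 0.878 (interval 0.796 to 0.969), which included 1 with the other scalings.

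The remaining nucleotide genes did not share the low rATB level. Tyms (ENSMUSG00000025747), the thymidylate synthase, was at 8.83 units in the control, 10.8 with buffer and 9.91 with rATB. Dut (ENSMUSG00000027203), which removes dUTP, followed the same order at 9.45, 11.6 and 10.1 units. Ung (ENSMUSG00000029591), the glycosylase that cuts uracil out of DNA, was at 3.15, 3.04 and 3.37 units. The intervals of these genes included 1 in every pair of libraries as deposited, and under both other scalings Tyms and Dut were higher in buffer than in the control. Pcna and Tyms have pseudogenes in GENCODE M21 by their annotated names, so their reads may be shared with these.

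Among the chromatin genes, Uhrf1 was the member lower with rATB. Uhrf1 (ENSMUSG00000001228), which binds newly copied DNA and brings in the maintenance methyltransferase, was at 14.0 units in the control, 17.1 with buffer and 10.4 with rATB. The rATB level was 0.610 times that of buffer (interval 0.50 to 0.741) and 0.744 times that of the control (interval 0.607 to 0.910). The genes of the chromatin assembly factor that places histones behind the fork stood at 12.1, 13.2 and 13.9 units for Chaf1a and 8.16, 8.37 and 7.18 units for Chaf1b. Slbp (ENSMUSG00000004642), which binds the stem-loop of histone messenger RNA, was at 27.8, 26.2 and 27.1 units. Chaf1a, Chaf1b and Slbp did not differ beyond counting error in any pair.

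In all, 7 members were lower in rATB than in both other libraries by counting error, beside 15.4% of all genes: Mcm7, Pola1, Pole, Rrm1, Rrm2, Tk1 and Uhrf1. Scaled by library total or by median-of-ratios 5 of them were called, without Pole and Rrm1, beside 15.5% and 13.2% of all genes. Buffer was above both others for 6 members, Cdc6, Mcm3, Mcm5, Mcm10, Rrm2 and Uhrf1, beside 2.36% of all genes, and below both for 0, beside 7.81%. That count became 10, beside 6.83%, when scaled by library total and 9, beside 4.15%, by median-of-ratios. Rrm2 and Uhrf1 are in both sets under every scaling, with the order buffer, control, rATB from high to low. Tk1 joined them under both other scalings, and Mcm7 when scaled by library total.

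Ratios of reads within 1 complex do not depend on how libraries were scaled, so the uneven behaviour of subunits was also measured in that way. For each subunit the odds of its reads against those of the others were compared between libraries. Within the MCM ring, the share of Mcm6 was 12.9% of the reads in the control, 14.1% with buffer and 17.2% with rATB. The odds ratio of Mcm6 was 1.26 for rATB to buffer (interval 1.09 to 1.46) and 1.41 for rATB to control (interval 1.21 to 1.64). Mcm4 likewise took a greater part with rATB, with odds ratios of 1.27 (interval 1.12 to 1.45) and 1.17 (interval 1.02 to 1.33). Mcm7 took a smaller part against both, with 0.809 (interval 0.676 to 0.966) and 0.773 (interval 0.645 to 0.926). Mcm2 took a smaller part than in the control, at 0.844 (interval 0.714 to 0.995), Mcm5 a smaller part than in buffer, at 0.83 (interval 0.717 to 0.961), and the intervals of Mcm3 included 1. For all 6 subunits the buffer to control interval included 1. That of Mcm6, 0.957 to 1.30 around 1.11, overlapped its rATB to buffer interval. Over all genes 20% were lower and 19.6% higher in rATB than in buffer by counting error. How often sets of other genes are as uneven was not measured.

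Within the loader, Rfc3 took a greater part with rATB, with odds ratios of 1.25 to buffer (interval 1.02 to 1.54) and 1.26 to control (interval 1.02 to 1.54). Rfc4 took a smaller part than in buffer, at 0.650 (interval 0.495 to 0.851), and its interval against the control, 0.607 to 1.07, included 1. The part of Rfc2 with rATB was within counting error, at 1.14 to buffer (interval 0.984 to 1.32) and 0.941 to control (interval 0.812 to 1.09), as was that of Rfc5. Between buffer and control, the part of Rfc2 was smaller in buffer, with an odds ratio of 0.826 (interval 0.712 to 0.958). For that pair of libraries the intervals of Rfc3, Rfc4 and Rfc5 included 1. Among Pola1, Prim1 and Prim2, of polymerase alpha and primase, every interval included 1. Rrm2 made up 30.8% of the reads of both reductase subunits in the control, 38.1% with buffer and 28.4% with rATB. For this pair the buffer library was the one apart: the odds ratio of Rrm2 was 0.643 for rATB to buffer (interval 0.539 to 0.767), 0.891 for rATB to control (interval 0.741 to 1.07) and 1.38 for buffer to control (interval 1.18 to 1.63).

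**Figure D3:**
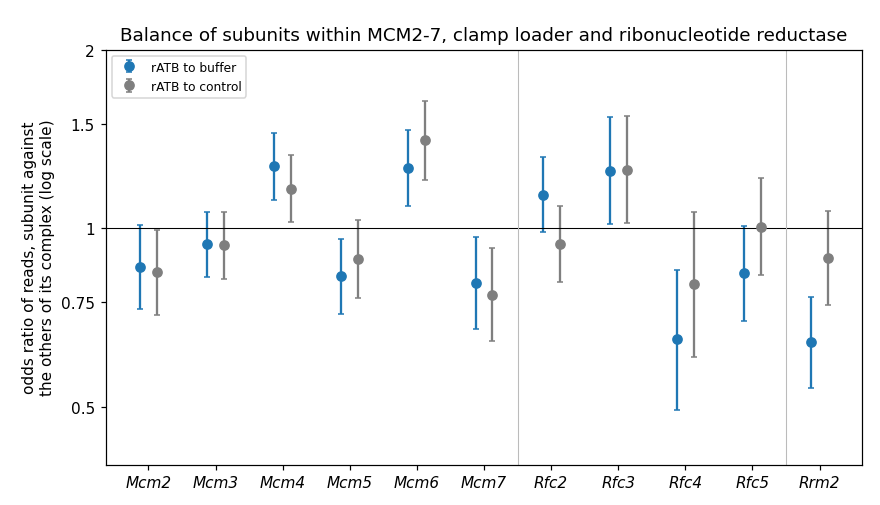
Odds ratio of the reads of 1 subunit against the other subunits of its complex, for rATB to buffer (blue) and rATB to control (grey), on a log axis with exact 95% counting intervals. Mcm4, Mcm6 and Rfc3 lie above 1 in both comparisons and Mcm7 below 1 in both, while Rrm2 is below 1 against buffer at 0.643 and spans 1 against the control.

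A list of 51 other replication factors, of which 50 passed the filter, lay close to the members. Its medians were -0.15 against buffer and -0.080 against the control for rATB, and 0.096 for buffer against control. By counting error 18 were lower and 4 higher in rATB than in buffer, and 11 lower and 4 higher than in the control. Over all genes the shares were 20% and 19.6% against buffer and 27.3% and 14.5% against the control. Scaled by library total or by median-of-ratios, fewer of the list were lower than the control. The shares of all genes lower than the control were then 21% and 20.1%. Dna2 (ENSMUSG00000036875), a nuclease and helicase that cuts long flaps, was at 54.8 units in the control, 49.1 with buffer and 24.7 with rATB, first of the list when ranked by whichever of the 2 gaps to rATB was the narrower. Its rATB level was 0.503 times that of buffer (interval 0.444 to 0.568) and 0.450 times that of the control (interval 0.399 to 0.506). Cdc7, the kinase that starts the loaded helicase, was at 16.1, 15.7 and 10.3 units, a rATB to buffer ratio of 0.656 (interval 0.536 to 0.800). Its activating partner Dbf4, chosen after its values were seen, was at 19.1, 19.4 and 15.2 units, lowest in the same library.

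Asf1b, a histone chaperone, and Pole3, a small subunit of the leading-strand polymerase, were lower as well, at 15.8, 15.8 and 11.8 units and at 22.1, 23.0 and 17.2 units. Exo1, an exonuclease, rests on 34, 30 and 15 reads, and its rATB to buffer interval of 0.271 to 1.04 included 1. Of the 50 past the filter, 3 were higher than both by counting error, or 6%, beside 11.4% of all genes. They were Gins3, and Pold4 and Dnmt1, the last 2 named after their values were seen. Gins3 stood at 12.9, 16.3 and 22.4 units, with a rATB to buffer ratio of 1.37 (interval 1.17 to 1.61) and a ratio to control of 1.74 (interval 1.47 to 2.06). Gins1 and Gins2, subunits of the same complex, stayed within counting error.

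Over 13 E2F factors and pocket protein partners, the median rATB difference was -0.055 from buffer and -0.18 from the control, with 2 lower than buffer and 6 lower than the control by counting error, beside 20% and 27.3% of all genes. Those lower than the control were E2f3, E2f4, E2f6, E2f7, E2f8 and Rbl1, and E2f5 was the one higher than the control. The intervals of E2f3, E2f4 and E2f6 against the control ended at 0.981, 0.967 and 0.976, and included 1 with the other scalings. E2f8, a repressor of the family that is itself transcribed in S phase, was the one lower than both, at 35.6, 38.1 and 25.4 units and a rATB to buffer ratio of 0.666 (interval 0.587 to 0.756). The related repressor E2f7 was at 3.04, 2.75 and 1.78 units, on 28 to 54 reads. The activators E2f1, E2f2 and E2f3 stood at 27.2, 24.4 and 24.3 units, at 8.94, 10.4 and 7.56 units, and at 20.0, 16.3 and 16.7 units. Of these, E2f2 was lower in rATB than in buffer by counting error, with a ratio of 0.726 (interval 0.570 to 0.920). E2f4, E2f5 and E2f6 had rATB to buffer ratios of 0.969, 1.07 and 0.842, and the dimer partners Tfdp1 and Tfdp2 had 1.03 and 0.867, each with an interval that included 1. The pocket protein genes Rb1, Rbl1 and Rbl2 lay at ratios of 1.05, 0.921 and 0.962 to buffer, also within counting error.

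Among 14 S phase cyclins and kinases, Ccnd2 stood out upward and Ccna2 downward. Ccnd2 (ENSMUSG00000000184), the D-type cyclin that drives entry into the cycle, was at 102 units in the control, 126 with buffer and 223 with rATB. Its rATB level was 1.76 times that of buffer (interval 1.67 to 1.86) and 2.18 times that of the control (interval 2.06 to 2.31). Ccna2, the cyclin of S phase and of entry into mitosis, was at 24.1, 25.1 and 15.9 units, with ratios of 0.634 (interval 0.540 to 0.743) and 0.658 (interval 0.561 to 0.771). Cdk6, a partner of the D-type cyclins, was at 6.69, 6.91 and 8.90 units, while Ccnd1 was at 4.67, 5.33 and 3.88 units. The intervals of Ccnd1 for rATB included 1 against both libraries. Cdk1 and Skp2, a component of the ubiquitin ligase that removes cyclin-dependent kinase inhibitors, were at 30.4, 35.0 and 26.9 units and at 6.19, 7.61 and 5.28 units, lowest with rATB. Both were below buffer by counting error, while their intervals against the control included 1. Of the 14 genes, 4 were lower and 3 higher than buffer by counting error, beside 20% and 19.6% of all genes.

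Inhibitors of the cyclin-dependent kinases did not stand higher as a group. Cdkn1a, which encodes p21, was at 330 units in the control, 292 with buffer and 245 with rATB, so that its rATB level was 0.842 times that of buffer (interval 0.807 to 0.878). Cdkn1b was at 130.4, 119 and 133 units, and its rATB to buffer ratio was 1.12 (interval 1.05 to 1.19). Cdkn2b was at 7.59, 12.7 and 11.1 units, lower in the control than in both other libraries. The rATB to buffer ratio was 1.01 for Cdkn2c and 0.937 for Cdkn2a, within counting error. Cdkn1c and Cdkn2d did not pass the filter, with at most 8 and 19 reads a library.

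For 3 members that were lower with rATB, the related gene used outside S phase was not lower. Rrm2b, the reductase subunit used by resting cells, was at 15.4 units in the control, 16.6 with buffer and 17.5 with rATB, a rATB to buffer ratio of 1.05 (interval 0.887 to 1.25) beside 0.558 for Rrm2. Tk2, the mitochondrial thymidine kinase, was at 72.8, 64.5 and 74.4 units, a ratio of 1.15 (interval 1.06 to 1.25) beside 0.567 for Tk1. Uhrf2, the paralog of Uhrf1, was at 87.8, 90.6 and 111 units, a ratio of 1.23 (interval 1.15 to 1.32) beside 0.610 for Uhrf1. The intervals of each pair lie apart. These 3 pairs are set apart by the low rATB level of their member in these same data. Of the 6 genes of the list, 1 was lower and 2 higher in rATB than in buffer by counting error. Over all genes 20% were lower and 19.6% higher. The other genes of the list did not show this: the ligase gene Lig3 was lower at a ratio of 0.702 (interval 0.589 to 0.835), beside 0.907 for Lig1 (interval 0.793 to 1.04). Lig4 and the uracil glycosylase gene Smug1 were within counting error at 1.26 and 1.09, as was Ung at 1.11.

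Mitosis genes, 30 in number and all past the filter, lay further down in rATB than the replication genes, and did so against both other libraries. Their median difference was -0.62 from buffer and -0.51 from the control, where the members had -0.18 and -0.037. By counting error 27 of the 30 were lower in rATB than in both other libraries, against 7 of the 37 members and 15.4% of all genes. At a difference of at least 0.5 below both, the counts were 14 and 1, beside 3.01% of all genes. Between buffer and control the lists were alike, with medians of 0.11 each. Cenpf, a protein of the kinetochore, was at 15.2, 17.0 and 7.18 units, a rATB to buffer ratio of 0.422 (interval 0.336 to 0.526). Plk1 and Cdc20, which drive mitosis and its exit, had ratios of 0.50 (interval 0.392 to 0.633) and 0.560 (interval 0.449 to 0.695). Kif11, Birc5 and Anln, of the spindle and of cell division, had ratios of 0.511, 0.548 and 0.597. With 1 library per group, the difference between the lists was not tested.

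**Figure D4:**
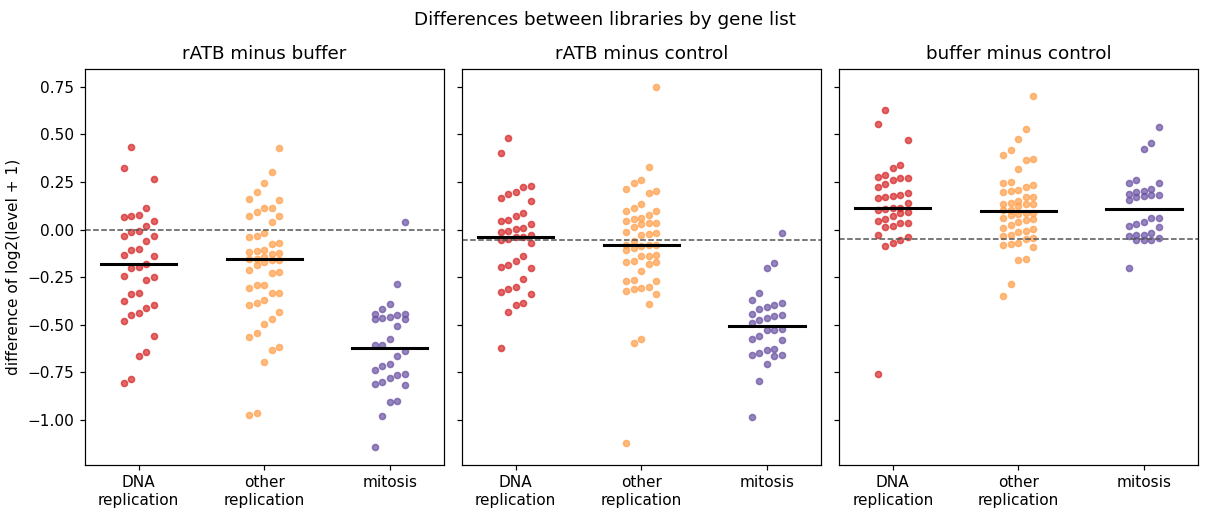
Difference of log2(level + 1) between libraries for the 37 DNA replication genes, 50 other replication factors and 30 mitosis genes. Each point is a gene, black bars are list medians and the dashed line is the median of all genes past the filter; the mitosis median is -0.62 against buffer and -0.51 against the control, and the DNA replication median is -0.18 and -0.037.

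Markers of the labelled cell type were present in every library. All 8 dendritic cell markers passed the filter, and their summed level was 16274 units in the control, 13496.5 with buffer and 10662 with rATB, most of it from Cd74 and the class II genes H2-Aa and H2-Ab1. The markers did not move together. Cd74 was at 10811, 8533 and 6059 units, H2-Aa at 2387, 1979 and 1402 units and H2-Ab1 at 1031, 811 and 543 units. Itgax was also lowest with rATB, at 1200, 1213 and 981 units. Ccr7 and Cd86, which mark mature dendritic cells, were higher in that order, at 621, 723 and 1252 units and at 183, 192 and 374 units. Flt3 was at 5.29, 7.20 and 12.8 units and Zbtb46 at 35.1, 38.1 and 38.8 units. Macrophage and monocyte markers passed for 7 of 8, with sums of 4376, 3435 and 3262 units. These did not move together either, with C1qa at 386, 258 and 134 units and Cd68 at 515, 406 and 515 units. Of 6 progenitor markers all passed, with sums between 120.3 and 128 units. Within that sum Kit, Myb and Prtn3 were highest with rATB, while Cd34, Gata2 and Cebpe were lowest. Kit was at 26.7, 31.4 and 36.0 units and Cd34 at 22.4, 22.1 and 15.8 units. Neutrophil markers summed to 84.4 to 108 units with 4 of 8 past the filter. The defining T cell genes Cd3e, Cd3g and Trac, the B cell genes Ms4a1 and Pax5, the natural killer genes Ncr1 and Eomes, the basophil gene Mcpt8 and the red cell gene Hba-a1 had 0 reads in all libraries, which allows up to 0.169 to 0.191 units, the level of 3 reads. Summed levels were at most 1.91 units for T cells, 0.508 for B cells, 4.63 for natural killer cells, and 0.995 for mast cells, basophils and eosinophils. Fibroblast and endothelial markers summed to 11.7 to 12.9 units, mostly Pecam1. The part of these markers in the differences of the replication genes was not tested.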

How the data were processed

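Per the labels' protocols, RNA was taken with TRIzol, made into libraries with the TruSeq RNA version 2 kit, which does not mark strand, and read as 150-bp pairs. The aligner was TopHat2 2.0.13, per the submitters' processing notes. The notes name the human build GRCh37, while the gene identifiers are of mouse, so the build used is unclear and no coordinate comes from the table. No source used here names the counter or the scaling method.

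The authors' deposited values are log2 of scaled counts per gene in 37991 rows, per the file headers, with spreadsheet errors for the log2 of 0. Turned linear, 100% of the values above 0 were whole multiples of the smallest in their column (tolerance 1e-06). Values were therefore read as counts times 1 factor per library: 1, 1.04 and 1.13 for control, buffer and rATB. Damaged symbols, 25 in number, were restored by identifier, and rows sharing a symbol were summed.

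Exact conditional (Clopper-Pearson) intervals and conditional odds ratios were computed with SciPy 1.17.1 and tested on simulated data. They cover counting error only, since reads without molecular identifiers are not independent molecules. Shared exonic bases were taken from GENCODE M21, and promoters from RefSeq on GRCm38.p6. Of the 3 promoters first by number of E2F-type matches, with the tie for the third place taken in list order, the 2 with at least 100 bases before the outermost RefSeq start are shown.

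The members and lists were chosen with earlier results of these data known. Named genes were all members, 3 lists in full (E2F and pocket proteins, kinase inhibitors, paralogs), and up to 6 genes of each other list, those with the largest smaller-of-both differences of rATB from buffer and control.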

Additional observations from a re-analysis of the deposited data

How the results depend on the processing

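The 3 median differences and 4 counts of the 37 genes were recomputed under 7 alternatives, which gave 49 values. Of these, 42 stayed within the counting error of the summed reads (medians) or within 1.5 times (counts). The median of rATB minus control changed sign when scaled by library total (0.011) and by median-of-ratios (0.017). It is near 0 under every scaling, and the medians over all genes then were -0.010 and -0.0037. The median of buffer minus control became 0.19 and 0.16 under the same scalings. With log2(level + 5), the median of rATB minus buffer became -0.12 and the members lower than buffer by at least 0.5 became 3. With log2(level + 0.1), the members lower than the control by that size became 2. Other scalings turned the sign for Cdt1 (rATB against buffer), for Cdc6, Gmnn, Pold1, Pcna, Rfc4 and Slbp (rATB against control), and for Cdc45, Pcna, Rfc2 and Ung (buffer against control), in each case a difference within counting error as deposited. No paired analysis was possible because each group had 1 library. Depth limits Fen1, Orc1, Gins1 and Ung most, with at most 58 reads in any library.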
